A study of Drosophila melanogaster with 12 samples.

Results

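Heads of flies in which TBPH was re-expressed in neurons were compared with heads of the *w1118* control strain, using 6 of the 12 arrays of the series. TBPH is the fly homolog of TDP-43, a mostly nuclear RNA-binding protein that acts in splicing and forms aggregates in amyotrophic lateral sclerosis. The rescue flies (3 arrays) were homozygous for the null allele *tbphΔ23*, carried *elav*-GS-GAL4 and UAS-TBPH, and ate food with 5 mM RU-486 for the 60 h between eclosion and collection. The *w1118* flies (3 arrays) were collected at the same age from standard food without the drug. The *tbphΔ23* and *tbphΔ142* mutants, also 3 arrays each on standard food at 60 h, are used here only as side values. *elav*-GS-GAL4 is a GeneSwitch driver, a GAL4 form expressed in neurons that becomes active when it binds RU-486 (mifepristone). Rescue and control therefore differ in the drug, in the driver and the transgene, in TBPH itself and in any other difference between the stocks, and these cannot be told apart in this comparison. The arrays were picked by their sample titles, with earlier results of these data known, and all 11982 genes measured on the arrays were compared.

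The fly head holds more than brain. The cuticle of the head capsule is made of chitin fibres and structural proteins that epidermal cells secrete, also for a period after eclosion. The antennae and maxillary palps carry the olfactory neurons, whose sensilla are filled with odorant-binding proteins from support cells. Fat body lines the inside of the capsule, stores lipid and secretes serum proteins and enzymes that process foreign compounds. Levels below are log2 intensities, so a difference of 1 is 2-fold, and levels of different genes are not on a common scale.

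Of the 11982 genes, 4192 (35.0%) differed between rescue and *w1118* heads at a Benjamini-Hochberg adjusted p under 0.05 (limma), 2030 of them higher (16.9%) and 2162 lower (18.0%) in the rescue. The median difference over all genes was 0.013, and among changed genes the median size was 0.49. Differences of at least 2-fold were found in 327 higher (2.73%) and 537 lower genes (4.48%), and of at least 16-fold in 14 higher and 43 lower genes. In 4089 of the 4192 genes the 3 rescue arrays lay entirely on one side of the 3 *w1118* arrays, an arrangement seen in 45.9% of all genes. Higher genes made up 48.4% of the changed genes in the deposited values and 55.8% with array medians centred.

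Rescue replicate 1 stood apart from the other rescue arrays. It lay 62.8 and 61.7 log2 units from rescue replicates 2 and 3, which lay 21.6 from each other, while *w1118* arrays lay 17.6 to 25.7 apart (Euclidean distance over all genes). In this array 305 genes were over 2-fold from the mean of the other rescue arrays, 283 of them higher, against 21 genes over 2-fold apart between replicates 2 and 3. Genes of digestive enzymes, which are made in the midgut, were among them. Of 31 measured genes of the Jonah (with *yip7*), trypsin and maltase families, a list drawn up after the values were seen, 19 were over 4-fold above the *w1118* mean in rescue replicate 1 and 0 in either other rescue array. The trypsin gene *alphaTry* read 12.91 in rescue replicate 1 and 4.05 and 4.08 in the other rescue arrays, and 3.61, 3.76 and 3.89 in *w1118* arrays. Over the 31 genes the mean level was 7.82 in that array, 3.89 and 3.83 in the other rescue arrays, and 3.82 to 3.86 in *w1118* arrays. The flight muscle genes *Act88F*, *TpnC4* and *fln* were also highest there, with a mean of 7.94 against 5.32 and 5.70 in the other rescue arrays and 4.61 to 4.85 in *w1118*. Without this array 4083 genes differed, 2009 higher and 2074 lower. The part of this array in single results was not tested beyond leaving it out, and results that turn on it are given below without it as well.

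**Figure D1:**
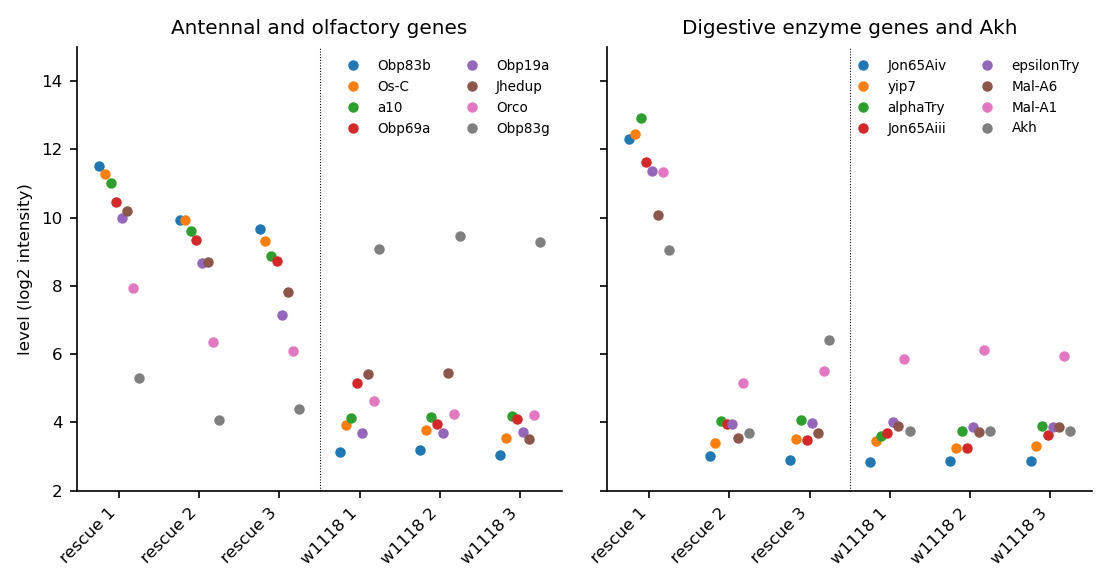
Level (log2 intensity, y axis) of 8 antennal or olfactory genes (left) and of 7 digestive enzyme genes and *Akh* (right) on each rescue and *w1118* array (x axis), a point per gene and array. The digestive enzyme genes are high in rescue replicate 1 alone, while *Obp83b* and the other antennal genes are high in all 3 rescue arrays and *Obp83g* is low in them.

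TBPH has 2 probe sets on the array. The brighter probe set read 9.13, 9.63 and 9.78 in rescue heads, 8.13, 8.32 and 8.11 in *tbphΔ23*, 5.45, 5.32 and 5.52 in *tbphΔ142*, and 7.96, 8.02 and 7.97 in *w1118* (rescue minus *w1118* 1.53 ± 0.14 SE, adjusted p = 3.54e-06, limma over probe sets). All rescue arrays were above all others, and the *tbphΔ23* arrays were not below *w1118*, so this probe set does not check the *tbphΔ23* deletion. No source used here says whether it lies inside the deleted stretch. The dimmer probe set differed by -0.15 (adjusted p = 0.232). RpL32, a common reference gene of qPCR that encodes a ribosomal protein, read 13.04, 13.04 and 13.05 in the rescue and 12.68, 12.64 and 12.67 in *w1118* (0.38, adjusted p = 2.36e-04).

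Cuticle genes were strongly lower in the rescue. Of 111 measured genes of structural cuticle proteins, 39 were lower in the rescue (all genes 18.0%) and 3 were higher (all genes 16.9%), and 27 were at least 2-fold lower. The median difference over the list was -0.14, and 56 members read below 4, near the bottom of the scale, on average in both groups. Of the 52 members with a mean of at least 4 over the 12 arrays, 33 were lower. *Cpr97Ea*, which encodes a protein with a chitin-binding domain of the Rebers-Riddiford type, read 4.63, 4.32 and 4.75 in rescue heads and 10.79, 11.20 and 10.83 in *w1118* heads (-6.38 ± 0.16 SE, 83.2-fold lower, adjusted p = 2.27e-10). *Cpr62Bc*, of the same family, read 6.48, 5.55 and 5.64 in the rescue and 11.79, 11.90 and 11.92 in *w1118* (-5.98 ± 0.19 SE). For both genes the rescue arrays lay far below every *w1118* array. *Cpr97Eb* (-5.55), *Cpr64Aa* (-5.16) and *Vajk3* (-6.33), a member of a small insect cuticle family, were likewise at least 35.8-fold lower. For *Cpr97Eb* and *Vajk3* rescue replicate 1 read 6.87 and 6.44, above 4.60 to 5.05 in the other rescue arrays, and their differences without it were -6.24 and -6.86. The 3 higher members, *Cpr47Ee*, *Cpr66D* and *Cpr78Ca*, moved by 0.33 to 0.56, and 1 member was higher without *w1118* replicate 3.

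The genes that make and shape chitin fell with the cuticle proteins. Of 38 measured genes of chitin synthesis and remodelling, 21 were lower (all genes 18.0%) and 6 higher (all genes 16.9%). The median was -0.47 against 0.013 over all genes. *kkv* encodes the chitin synthase of the epidermis, and it read 4.53, 3.61 and 3.92 in rescue heads and 10.08, 10.36 and 10 in *w1118* heads (-6.12 ± 0.19 SE, adjusted p = 1.27e-09). The chitinase gene *Cht5* read 4.84, 4.71 and 4.83 in the rescue and 10.73, 11.18 and 10.50 in *w1118* (-6.01 ± 0.20 SE). For both genes no array of either group came within 5 log2 units of the other group. *reb*, needed for chitin deposition, differed by -4.12, the chitin deacetylase genes *verm*, *serp* and *Cda4* by -4.29, -4.18 and -4.43, and *knk*, which protects and organises chitin, by -2.61. Upstream, *mmy* and *Gfat1*, enzymes on the route to the UDP-N-acetylglucosamine from which chitin is made, were lower by smaller amounts (-1.58 and -1.24). The 6 higher members were the imaginal disc growth factors *Idgf1* to *Idgf6*, secreted chitinase-like proteins that are made by fat body and hemocytes among others and lack chitinase activity. They rose by 0.40 (*Idgf3*) to 1.56 (*Idgf1*), and without them 21 of 32 genes were lower and 0 higher by limma's adjusted p (22 lower and 0 higher at an unadjusted p under 0.05). *Idgf1* read 9.16, 9.89 and 9.66 in the rescue and 8.02, 8.0 and 8.01 in *w1118*.

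Some tanning genes, which harden and colour new cuticle, were lower too. Of 25 measured, 9 were lower (all genes 18.0%) and 5 higher, near the share over all genes (16.9%). *yellow-d2* was 25.0-fold lower (4.72, 3.87 and 3.81 in the rescue, against 8.56, 9.12 and 8.66 in *w1118*), and *yellow-e* differed by -2.32. *ple*, the tyrosine hydroxylase that begins dopamine synthesis, differed by -1.07, *Pu*, the GTP cyclohydrolase that supplies its cofactor, by -1.41, and *e*, which makes beta-alanyl dopamine, by -0.75. In the other direction, the prophenoloxidase genes *PPO1* and *PPO2*, which are expressed in crystal cells of the blood, were 9.04-fold and 7.84-fold higher (*PPO1* 8.67, 8.93 and 8.58 in the rescue, against 5.92, 5.65 and 5.08 in *w1118*).

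The mutants differed in the same direction from the same *w1118* arrays for many of these genes, but by less. *tbphΔ23* heads, which share the mutation with the rescue, had 26 cuticle protein genes lower and 8 higher than *w1118* (all genes 11.9% and 9.40%), with a difference of -1.38 for *Cpr97Ea*, -0.89 for *kkv* and -0.59 for *Cht5* (adjusted p = 0.0578). Set directly against *tbphΔ23*, the rescue had 35 of the 111 lower and 5 higher (all genes 15.1% and 14.3%), with -5.00 for *Cpr97Ea*, -5.23 for *kkv* and -5.42 for *Cht5*. These comparisons share arrays and are given side by side only.

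**Figure D2:**
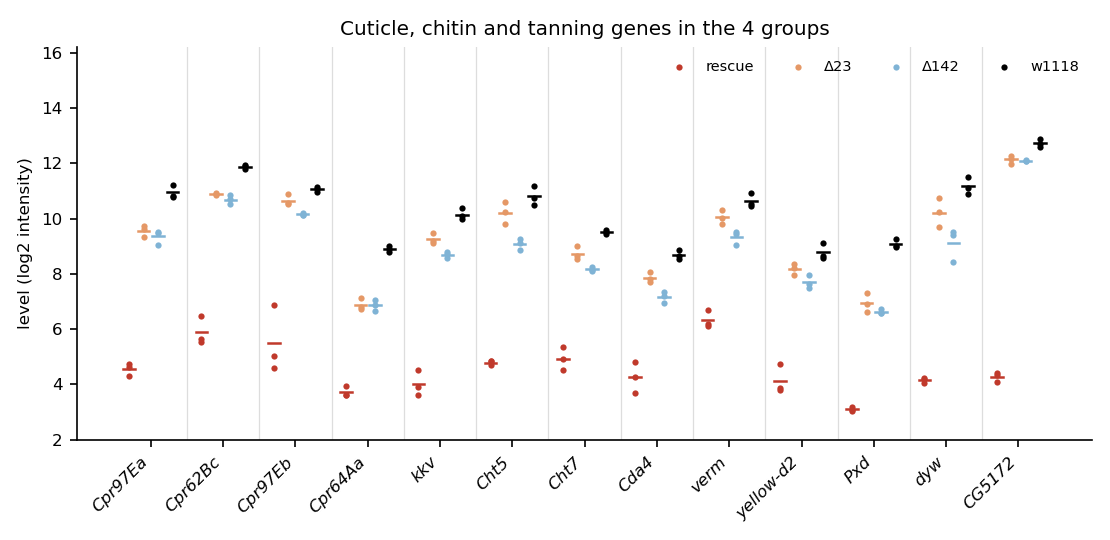
Level (log2 intensity, y axis) of 13 cuticle, chitin, tanning and uncharacterised genes in rescue, *tbphΔ23*, *tbphΔ142* and *w1118* heads, a point per array with the mean of 3 arrays as a bar. In every gene the 3 rescue arrays lie below all 9 others, and the mutants lie nearer to *w1118* (*kkv* -0.89 in *tbphΔ23* and -6.12 in the rescue).

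The 12 lowest genes of the comparison also held genes without an assigned function or outside the lists. *CG5172* read 4.41, 4.32 and 4.10 in rescue heads and 12.69, 12.89 and 12.57 in *w1118* heads, a 347-fold difference (-8.44 ± 0.11 SE, adjusted p = 7.09e-13). *dyw*, a secreted protein gene of the haemolymph juvenile hormone binding family, was 128-fold lower, *CG8736* 133-fold lower, and the peroxidase gene *Pxd* 63.0-fold lower. *Pxd* read 3.08, 3.18 and 3.04 in the rescue and 9.01, 9.27 and 8.95 in *w1118*, at levels of the dimmest genes in every rescue array. *CG12998*, *CG34217* and *CG11413* were lower by 6.25 to 6.54 on the log2 scale. For *CG8736* rescue replicate 1 read 7.82 and the other rescue arrays 4.47 and 5.19, and without it the difference was -8.06, and without rescue replicate 2 it was -6.38.

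Odorant-binding proteins, which carry odour molecules through the fluid of the sensilla, included the highest rise of any list. Of 50 measured, 20 were higher (all genes 16.9%) and 7 lower (all genes 18.0%), with a median of 0.27. Of these, 13 and 5 changed at least 2-fold (all genes 2.73% higher and 4.48% lower). *Obp83b*, expressed in the antenna, read 11.51, 9.94 and 9.68 in rescue heads and 3.12, 3.18 and 3.04 in *w1118* heads (7.26 ± 1.1 SE, 153-fold, adjusted p = 2.19e-04). *Os-C*, also antennal, read 11.27, 9.92 and 9.31 in the rescue and 3.92, 3.77 and 3.55 in *w1118* (6.42 ± 0.93 SE). For these genes the *w1118* arrays read at the level of the dimmest genes, although antennae express them. The antennal genes *a10* (5.68), *Obp69a* (5.11), *Obp19a* (4.91), *Obp84a* (3.89) and *a5* (4.21) were also higher, as was *Jhedup* (4.10), an esterase of the antenna. Rescue replicate 1 was the highest array for each of them, and without it *Obp83b* differed by 6.69 (adjusted p = 4.14e-04), *Os-C* by 5.87, *a10* by 5.08, *a5* by 3.6, *Jhedup* by 3.46 and *Obp19a* by 4.22, all still past the threshold. *Jhedup* also differed by 3.46 without *w1118* replicate 3, and *Obp19a* by 5.63 without rescue replicate 3.

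The same genes varied between mutant arrays. Over 9 antennal genes of odorant-binding and other secreted proteins, a list drawn up after the values were seen, the mean level was 9.69, 8.41 and 7.73 in rescue arrays, 6.54, 4.49 and 4.60 in *tbphΔ23*, 4.28, 4.37 and 5.35 in *tbphΔ142*, and 4.60, 4.54 and 4.31 in *w1118*. Rescue arrays were the highest 3 of the 12, and *tbphΔ23* replicate 1 came next. As 8 of the 9 genes were past the threshold and higher in the rescue, the rank of the rescue arrays follows from the choice of genes. In such whole-head RNA fewer cells of a kind on the array and less RNA per cell cannot be told apart, and no source used here says how much antennal tissue each sample held. *lush*, needed to sense the pheromone cVA, read 9.48, 8.12 and 7.52 in the rescue and 7.28, 7.67 and 7.09 in *w1118*, with overlapping arrays (1.03, adjusted p = 0.0587).

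Other odorant-binding proteins went down or belong to other tissues. *Obp83g* was 4.69 lower on the log2 scale (5.30, 4.06 and 4.39 in the rescue, against 9.08, 9.46 and 9.29 in *w1118*), and *Obp19b* and *Obp56e* differed by -1.82 and -1.68. *Obp99a*, which is abundant in fat body, read 11.96, 12.03 and 11.52 in rescue heads and 7.61, 6.02 and 8.04 in *w1118* heads (4.61 ± 0.69 SE, adjusted p = 2.56e-04).

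Most receptor genes of the antenna were dim on the arrays. *Orco*, the co-receptor that most odorant receptors need, read 7.93, 6.35 and 6.09 in rescue heads and 4.62, 4.26 and 4.23 in *w1118* heads (2.42 ± 0.38 SE, 5.36-fold, adjusted p = 3.26e-04), and 1.85 without rescue replicate 1. Of 57 measured odorant receptor genes, *Orco* included, 19 were higher and 0 lower by limma's adjusted p (23 and 1 at an unadjusted p under 0.05), but 50 had a mean under 4 over the 12 arrays, and 15 of the 19 were among these. Over all 3956 genes under that level, 229 were higher and 203 lower. The count of 19 was 10 without rescue replicate 1, 11 without *w1118* replicate 1, 9 without *w1118* replicate 3 and 7 in a fit of the 6 arrays alone. *Or43b* (0.69, adjusted p = 3.01e-04) was the highest after *Orco*.

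Of 53 ionotropic receptor genes, 4 were higher and 1 lower (all genes 16.9% and 18.0%). Of the 53, 47 had a mean under 4 over the 12 arrays. At that level fewer genes passed (229 higher and 203 lower of 3956), so the shares over all genes are not a matched background. *Ir76a*, a receptor of amine-sensing antennal neurons, read 7.06, 6.95 and 7.06 in the rescue and 3.42, 3.47 and 3.31 in *w1118* (3.62 ± 0.11 SE, 12.3-fold, adjusted p = 1.18e-09). Its 3 rescue arrays lay close together, unlike those of *Obp83b* and *Os-C*. *Ir75a*, which senses acids, was higher by 1.40 and *Ir68a*, a receptor for moist air, by 1.71. Of 56 gustatory receptor genes, all with a mean under 4, 7 were higher and 1 lower, and leaving out any array gave 3 or 4 higher genes. *Gr63a*, a subunit of the carbon dioxide receptor of the antenna, was 0.81 higher, while its partner *Gr21a* (0.32) lost the threshold without rescue replicate 1 (0.26, adjusted p = 0.101) or 2, or *w1118* replicate 1 or 3. Of the 7 receptor genes of the maxillary palp, 4 were higher, by at most 0.41 (2 without rescue replicate 2 or any of the *w1118* arrays), and their mean level was 3.52 to 3.73 in rescue and 3.39 to 3.49 in *w1118* arrays.

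**Figure D3:**
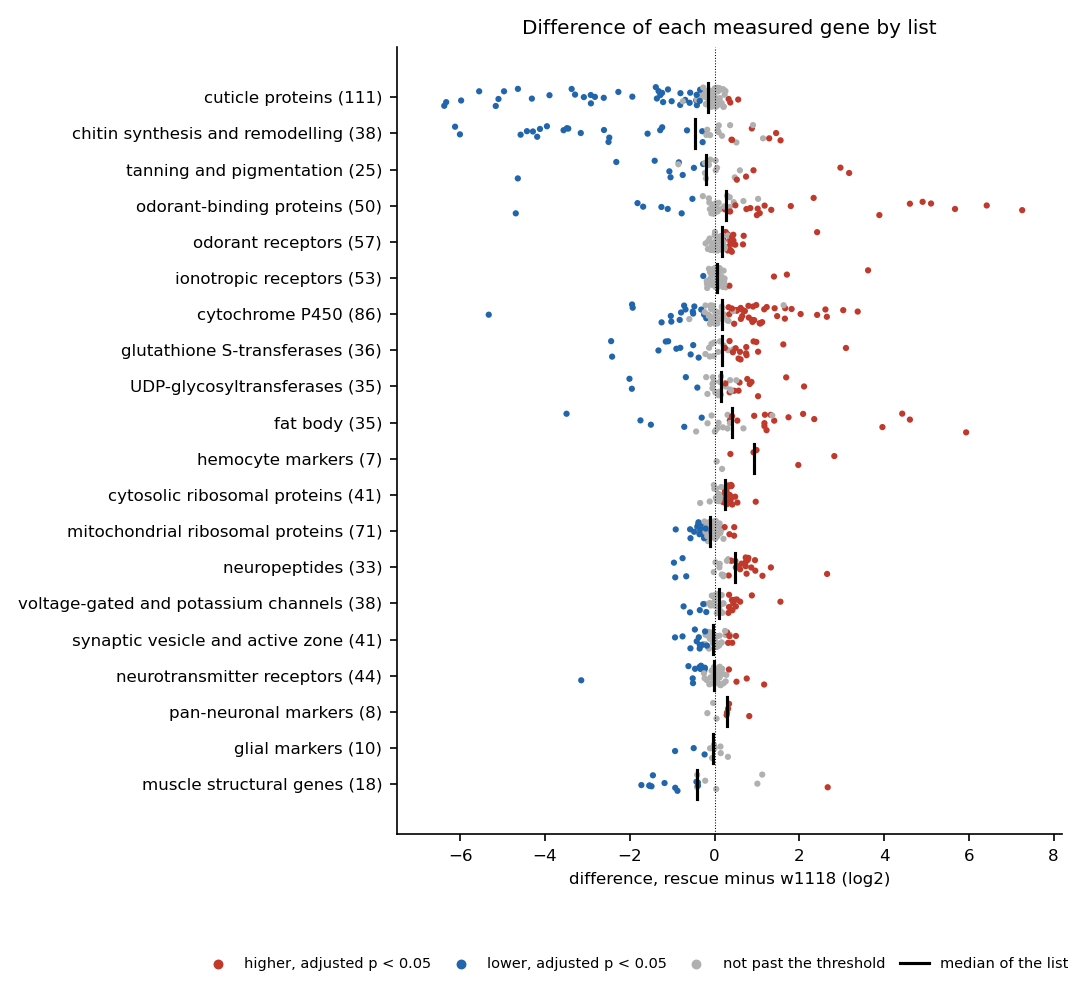
Difference of rescue minus *w1118* (log2, x axis) for each measured gene of 20 lists (y axis, members in parentheses), coloured by direction where adjusted p was under 0.05, with the list median as a bar. Cuticle and chitin genes reach below -6 and odorant-binding proteins above 7, while ribosomal protein genes lie in a narrow band near 0.25 (cytosolic) and -0.11 (mitochondrial).

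Detoxification enzymes changed often and in both directions. Cytochrome P450 enzymes oxidise hormones, fatty acids and foreign compounds. Of 86 measured genes 36 were higher (all genes 16.9%) and 16 lower, near the share over all genes (18.0%). Of these, 16 and 6 changed at least 2-fold. *Cyp4p2* read 6.67, 6.67 and 6.58 in rescue heads and 3.33, 3.34 and 3.11 in *w1118* heads (3.38 ± 0.077 SE, 10.4-fold, adjusted p = 9.02e-11). *Cyp6g1*, known for conferring insecticide resistance when overexpressed, read 11.08, 11.10 and 11.00 in the rescue and 8.95, 7.79 and 8.60 in *w1118* (2.62). The rescue arrays of both genes were tightly grouped above control. *Cyp6a23* (2.65), *Cyp4ac2* (2.42) and *Cyp9h1* (2.03) were also over 4-fold higher. *Cyp6a17*, which is needed for temperature preference, went the other way, with 3.47, 3.40 and 3.54 in the rescue, 3.46, 3.22 and 3.52 in *tbphΔ23*, 3.54, 3.33 and 3.63 in *tbphΔ142*, and 8.83, 8.77 and 8.80 in *w1118*. All 9 arrays other than *w1118* were low for it, and the rescue did not pass the threshold against *tbphΔ23* (0.07, adjusted p = 0.631). *Cyp4p2* was low in *tbphΔ23* heads, which differed from *w1118* by 0.09 (adjusted p = 0.463).

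Glutathione S-transferases, which conjugate glutathione to reactive compounds, had 15 of 36 higher (all genes 16.9%) and 10 lower (all genes 18.0%). All 15 and all 10 were among the 32 members with a mean level of at least 4 over the arrays. At that level more genes passed (1801 higher and 1959 lower of 8026). Against genes of that level the share of lower members was not clearly raised, while higher members were many. *GstE4* read 9.60, 8.32 and 7.49 in the rescue and 5.80, 5.74 and 4.57 in *w1118* (3.10 ± 0.53 SE), and 2.54 without rescue replicate 1, while *GstD9* was 1.62 higher. *GstE1* read 8.96, 8.88 and 8.89 in the rescue and 11.35, 11.33 and 11.38 in *w1118* (-2.44 ± 0.097 SE), and it was also low in *tbphΔ23* (-2.94). *se*, the enzyme of the drosopterin eye pigments, differed by -2.42, against -0.22 in *tbphΔ23* (adjusted p = 0.483). Of 35 UDP-glycosyltransferases, 11 were higher (all genes 16.9%), led by *Ugt37B1* (2.11) and *Ugt36A1* (1.69), and 4 lower (all genes 18.0%), led by *Ugt37A3* (-2.01) and *Ugt301D1* (-1.95). *Ugt301D1* was lower still in *tbphΔ23* (-4.93), so that the rescue was 2.98 above its parent allele and below *w1118*.

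Fat body genes were often higher in the rescue. Of 35 measured, 17 were higher (all genes 16.9%) and 5 lower (all genes 18.0%), with a median of 0.41. *tobi*, an alpha-glucosidase gene controlled by insulin and adipokinetic hormone, read 9.79, 9.81 and 8.70 in rescue heads and 3.46, 3.64 and 3.38 in *w1118* heads (5.94 ± 0.56 SE, 61.3-fold, adjusted p = 6.25e-06). *Gnmt*, a methyltransferase that uses S-adenosylmethionine, was 21.5-fold higher, and the storage protein gene *Lsp2* read 12.21, 12.93 and 12.45 in the rescue and 8.42, 8.16 and 9.12 in *w1118* (3.96 ± 0.85 SE). The groups did not overlap in these 3 genes. Genes of lipid transport and storage rose by less, among them *apolpp*, the precursor of the main lipoprotein (1.18), *Mtp*, which loads it with lipid (1.19), *Lsd-1*, a lipid droplet protein (1.18), and *Desat1*, a fatty acid desaturase (1.32). The iron carrier *Tsf1* was 2.35 higher. *Fbp1*, a receptor for larval storage proteins, went down (2.80, 3.37 and 3.53 in the rescue, against 6.15, 7.06 and 6.98 in *w1118*), and it was low in *tbphΔ23* as well (-3.26). *NLaz*, a lipocalin, differed by -1.75.

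Most of the listed genes whose level in the head differs between the sexes were also higher. Of 4 genes enriched in female heads, *fit*, *Yp2* and *Yp3* were higher and *Yp1* did not pass (0.69, adjusted p = 0.142), and of 3 genes enriched in male heads *Cyp4d21* (3.04) and *sxe2* (1.99) were higher while *Obp99b* did not pass (0.68, adjusted p = 0.385). *fit* read 13.05, 13.35 and 13.13 in the rescue and 9.24, 4.03 and 7.74 in *w1118* (6.17 ± 1.2 SE, adjusted p = 0.00185). The mean level of the female genes was 13.60 to 13.73 in rescue and 9.97 to 11.87 in *w1118* arrays, and that of the male genes 10.23 to 10.57 in rescue and 7.37 to 9.28 in *w1118*. *w1118* replicate 2 was the lowest array of its group for both lists, and for *Obp99a*, *apolpp* and *DptB*. No source used here gives the sexes of the flies, and the part of sex in the fat body results was not tested. Without *w1118* replicate 2, 16 fat body genes were higher and 4 lower, and the difference was 4.68 for *fit*, 2.19 for *Cyp4d21* and 4.01 for *Obp99a*, all past the threshold. For *fit* it was 7.29 without *w1118* replicate 1.

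Hemocyte markers rose. Of 7 measured, 5 were higher (all genes 16.9%) and 0 lower (all genes 18.0%) by limma's adjusted p. The counts were also 5 and 0 at an unadjusted p under 0.05 and without rescue replicate 1. The phagocytosis receptor gene *NimC1* read 7.07, 6.94 and 6.83 in rescue heads and 4.03, 4.18 and 4.15 in *w1118* heads (2.83 ± 0.11 SE), and *Hml*, a clotting protein gene, was 1.98 higher. *eater*, *srp* and *Pxn* were higher by 0.92, 0.99 and 0.37, while *crq* (0.18) and *He* (0.05) did not pass. The mean level of the 7 genes was 6.76 to 6.97 in rescue and 5.52 to 6.03 in *w1118* arrays. *PPO1*, *PPO2* and the *Idgf* genes, given above, are expressed in blood cells too. The part of blood cells in those results was not tested.

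**Figure D4:**
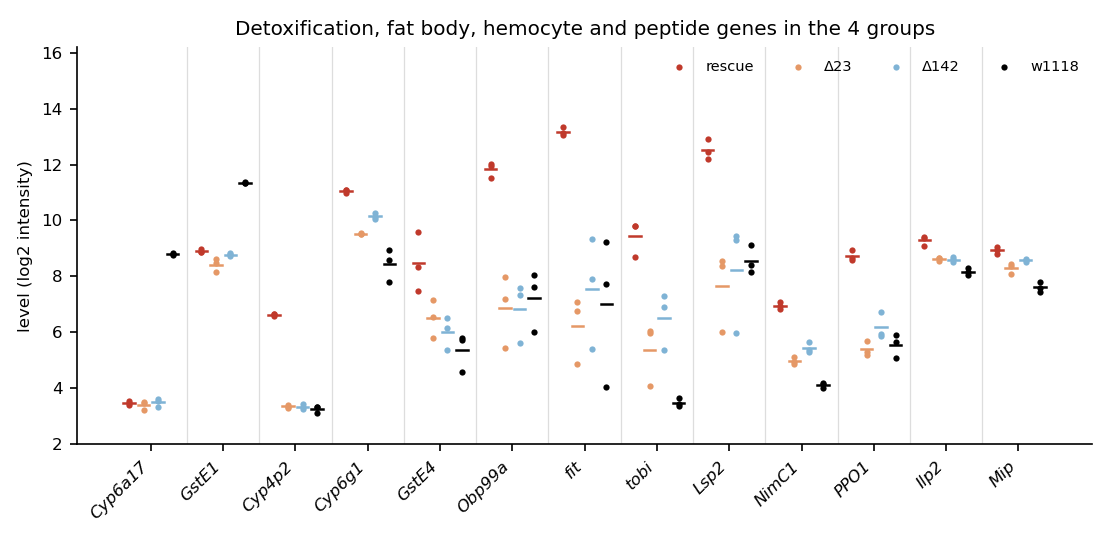
Level (log2 intensity, y axis) of 13 detoxification, fat body, hemocyte and peptide hormone genes in rescue, *tbphΔ23*, *tbphΔ142* and *w1118* heads, a point per array with the mean of 3 arrays as a bar. *Cyp6a17* and *GstE1* are low in all groups but *w1118*, *Cyp4p2* and *PPO1* are high in the rescue, and *fit* spreads from 4.03 to 9.24 in *w1118*.

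Immune peptides, made largely in fat body, were mixed. Of 22 measured genes of antimicrobial peptides and related induced peptides, 8 were higher (all genes 16.9%) and 7 lower (all genes 18.0%). *edin* read 8.99, 7.08 and 8.93 in the rescue, 12.36, 11.73 and 10.69 in *tbphΔ23*, and 4.31, 4.44 and 4.01 in *w1118*, so the rescue lay between its parent allele and control (4.08 above *w1118*, and 4.70 without rescue replicate 2). *DptB* (2.44), *Listericin* (2.42) and *Mtk* (1.88) were also above *w1118* (*DptB* 1.77 and *Listericin* 1.72 without *w1118* replicate 2, and *DptB* 3.15 without *w1118* replicate 1), while *Drsl4* (-2.51), *Drs* (-1.04) and the Bomanin gene *BomS4* (-1.06) were below it. *CG16713*, the gene with the highest difference of all, read 10.43, 10.73 and 10.53 in the rescue and 3.04, 3.19 and 3.49 in *w1118* (7.32 ± 0.18 SE), and was also high in *tbphΔ23* (10.83, 11.20 and 10.35).

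Ribosomal protein genes showed small shifts with little spread. Of 93 listed genes of the cytosolic ribosome, 41 were measured. By limma's adjusted p 27 were higher (all genes 16.9%) and 0 lower (all genes 18.0%). At an unadjusted p under 0.05 the counts were 30 and 1. The median was 0.25, and none was at least 2-fold higher. *RpS20* read 12.95, 12.93 and 12.97 in rescue heads and 12.49, 12.41 and 12.49 in *w1118* heads (0.49 ± 0.052 SE, adjusted p = 1.68e-05). *RpLP0*, a stalk protein of the large subunit, was 0.54 higher, and *RpLP0-like*, which acts in making that subunit, 0.97 higher. For *RpS20* and *RpLP0* every rescue array exceeded every *w1118* array by more than the spread within groups. Against *tbphΔ23* the rescue had 28 higher and 0 lower by limma's adjusted p (29 and 1 unadjusted), while *tbphΔ23* against *w1118* had 3 higher and 2 lower. With quantiles normalised again, 21 of the 41 were higher, and 1 was lower without rescue replicate 2 or *w1118* replicate 3. The actin probe sets at the 3′ and 5′ ends, a reading of RNA integrity, differed by 1.82 to 2.29 in rescue and 2.24 to 2.70 in *w1118* arrays, and those of GAPDH by 1.87 to 2.03 in rescue and 1.74 to 1.94 in *w1118* arrays. The readings ran in opposite directions with overlapping arrays, and the part of RNA integrity in these small differences was not tested. Of 44 translation factor genes, 15 were higher (all genes 16.9%) and 2 lower (all genes 18.0%). The initiation factor genes *eIF3k* (0.79), *eIF4E6* (0.66) and *eIF4B* (0.55) led the higher ones.

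Mitochondrial ribosomal proteins leaned the other way, by small amounts. Of 71 measured, 19 were lower (all genes 18.0%) and 4 higher (all genes 16.9%), with a median of -0.11. Of their differences, 45 were negative and 26 positive. All 71 had a mean level of at least 4 over the arrays. At that level more genes passed (1959 lower and 1801 higher of 8026), so the shares over all genes are not a matched background. Against genes of that level the share of lower members was not clearly raised, while higher members were few. *mRpL39* read 7.07, 6.90 and 6.92 in the rescue and 7.79, 7.93 and 7.91 in *w1118* (-0.92 ± 0.087 SE). *mRpS18C* and *mRpL44* differed by -0.58 and -0.57, and *mRpS6* by 0.46. In *tbphΔ23* against *w1118*, 30 were lower and 2 higher, and against *tbphΔ23* the rescue had 18 higher and 4 lower. *mRpL39* did not pass the threshold against *tbphΔ23* (-0.08, adjusted p = 0.524), whereas *mRpL18* was 0.36 above *tbphΔ23* and 0.48 below *w1118* on the log2 scale.

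**Figure D5:**
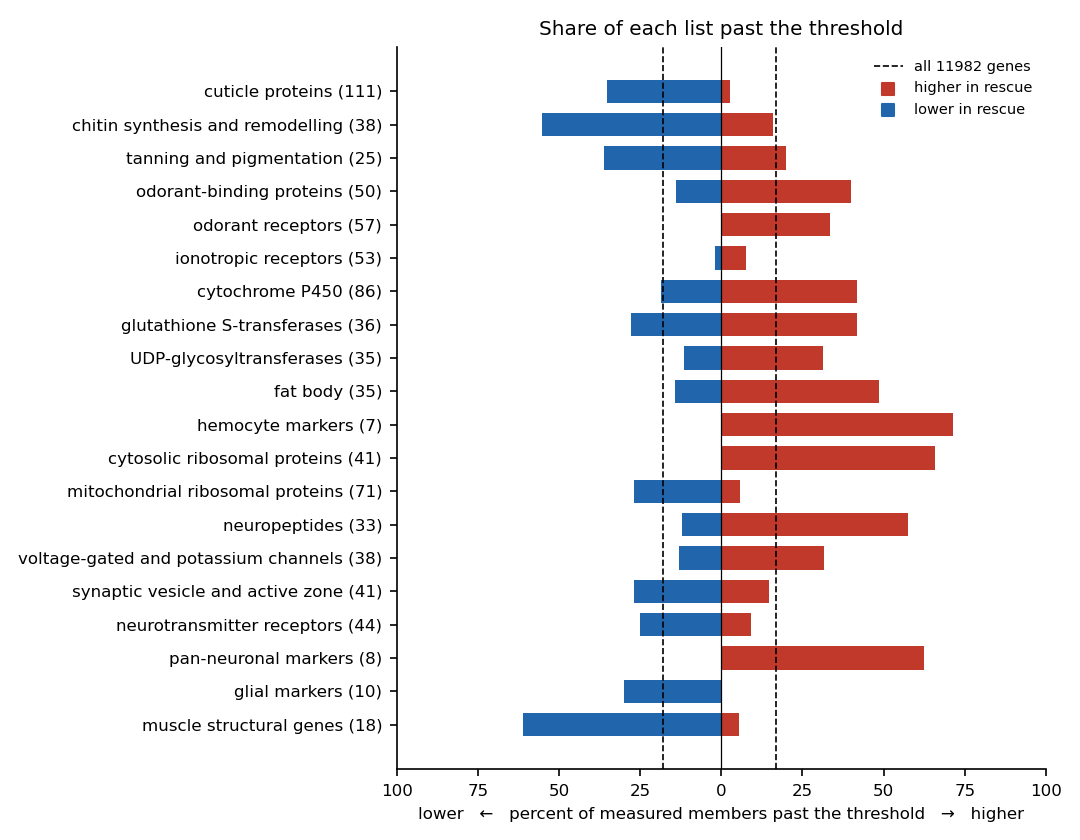
Share of the measured members of 20 lists that were higher (right, percent) or lower (left, percent) in rescue than in *w1118* heads at an adjusted p under 0.05, with dashed lines at the shares over all genes (16.9% higher, 18.0% lower). Chitin and muscle genes exceed the background mainly on the lower side, and hemocyte markers, cytosolic ribosomal proteins, pan-neuronal markers and neuropeptides on the higher side. The pan-neuronal bar shows 5 of 8 genes, a count that was 2 without rescue replicate 2 or *w1118* replicate 2.

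Neuropeptides and peptide hormones were often higher in the rescue. Of 33 measured, 19 were higher (all genes 16.9%) and 4 lower (all genes 18.0%), with a median of 0.49. *Mip*, a myoinhibitory peptide gene, read 8.82, 9.06 and 8.94 in rescue heads and 7.79, 7.46 and 7.58 in *w1118* heads (1.33 ± 0.11 SE, 2.51-fold, adjusted p = 2.69e-06). *Ilp2*, an insulin-like peptide of the brain's insulin-producing cells, read 9.07, 9.42 and 9.38 in the rescue and 8.29, 8.04 and 8.15 in *w1118* (1.13 ± 0.098 SE). Both genes had all rescue arrays above all *w1118* arrays. *Ilp5*, made in the same cells, was 0.74 higher, *AstC* and the corazonin gene *Crz* 0.96 each, the clock neuron peptide gene *Pdf* 0.74 and *NPF* 0.78. *7B2*, which activates the prohormone convertase that processes such peptides, was 0.87 higher, and *Pal2*, an enzyme of peptide amidation, 0.50. *CCAP* (-0.96), *Nplp3* (-0.93), *SIFa* (-0.75) and *AstCC* (-0.67) were lower. *Akh*, the adipokinetic hormone made in the corpora cardiaca beside the gut, read 9.06, 3.70 and 6.42 in the rescue and 3.74, 3.73 and 3.74 in *w1118* (2.66 ± 0.92 SE, adjusted p = 0.0429). Its rescue arrays overlapped the control level, and without rescue replicate 1 it did not pass (1.32, adjusted p = 0.0663), as also without rescue replicate 3 or any of the *w1118* arrays. Without rescue replicate 1, 16 of the list were higher and 4 lower.

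Of 38 channel genes, 12 were higher (all genes 16.9%) and 5 lower (all genes 18.0%). *Ork1*, a leak potassium channel, read 6.78, 6.64 and 7.23 in the rescue and 5.44, 5.04 and 5.50 in *w1118* (1.56 ± 0.18 SE), *Slob*, which binds the Slowpoke channel, was 0.88 higher, the sodium channel *para* 0.41 and the potassium channel *Sh* 0.50. *sand*, another leak channel, differed by -0.73. Of 41 genes of synaptic vesicles and active zones, 6 were higher (all genes 16.9%) and 11 lower (all genes 18.0%). The lower count was 7 without *w1118* replicate 1, and the higher count was 2 without rescue replicate 2 and 3 without rescue replicate 3 or *w1118* replicate 2, so neither stood clear of the background. *shi*, the dynamin of vesicle recycling, read 9.04, 8.86 and 8.74 in the rescue and 9.89, 9.63 and 9.92 in *w1118* (-0.93 ± 0.10 SE). *ChAT*, which makes acetylcholine, differed by -0.57, *VGAT* by -0.35 and *Gad1*, which makes GABA, by -0.42.

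Of 44 transmitter receptor genes, 4 were higher (all genes 16.9%) and 11 lower (all genes 18.0%). *KaiR1D*, an ionotropic glutamate receptor, read 3.89, 3.52 and 3.89 in rescue heads and 6.96, 6.75 and 7.01 in *w1118* heads (-3.15 ± 0.14 SE, adjusted p = 1.21e-08), with -1.16 in *tbphΔ23*. The nicotinic subunit *nAChRbeta3* was 1.17 higher and the serotonin receptor *5-HT1A* differed by -0.62. The count of 11 lower genes was 7 without rescue replicate 1 or *w1118* replicate 3 (all genes 18.0% lower).

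Of 8 pan-neuronal markers 5 were higher (all genes 16.9%) and 0 lower (all genes 18.0%) by limma's adjusted p. The counts were also 5 and 0 at an unadjusted p under 0.05. The count of higher genes was 2 without rescue replicate 2 or *w1118* replicate 2. It was 3 without rescue replicate 3 or *w1118* replicate 1. *elav*, whose regulatory sequence the driver uses, was 0.30 higher, and the transcription factor *onecut* differed by 0.82 (adjusted p = 0.0433), but by 0.48 without *w1118* replicate 2 (adjusted p = 0.162). The values of *brp* and *futsch* are medians of 4 and 3 probe sets, most of them dim. The brightest probe set of *brp*, counted as higher, differed by -0.09 (adjusted p = 0.504, limma over probe sets). That of *futsch*, not counted as higher, differed by 0.54 (adjusted p = 2.26e-04). The mean level of the 8 markers was 7.83 to 8.01 in rescue and 7.59 to 7.78 in *w1118* arrays. Of 10 glial markers 3 were lower (all genes 18.0%), the drug transporter *Mdr65* of the blood-brain barrier by the most (-0.93), while *repo* (0.15) and *alrm* (0.32) did not pass, and their mean level was 8.73 to 8.83 in rescue and 8.77 to 9.01 in *w1118* arrays. Of 19 eye genes 6 were higher (all genes 16.9%) and 6 lower (all genes 18.0%). The higher ones included *Galphaq* and *rdgC*, whose brightest probe sets differed by -0.82 and -0.19. *ninaD*, a scavenger receptor needed to take up carotenoids for the visual pigment, was 7.44-fold lower (-2.90) and was low in *tbphΔ23* too (-2.44), while *ninaB*, the oxygenase acting after it, did not pass (-0.01).

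Muscle genes were often lower in the rescue. Of 18 structural genes 11 were lower (all genes 18.0%) and 1 higher (all genes 16.9%), with a median of -0.42. Without rescue replicate 1, 14 were lower and 2 higher (median -0.78). Without rescue replicate 2, 3 genes were higher. *Prm*, the paramyosin of thick filaments, read 10.04, 9.47 and 9.60 in rescue heads and 11.43, 11.34 and 11.51 in *w1118* heads (-1.73 ± 0.12 SE, adjusted p = 5.13e-07). The myosin light chains *Mlc1* and *Mlc2* differed by -1.54 and -1.49 and the tropomyosin *Tm2* by -1.53. In all 4 genes the groups did not overlap, and *tbphΔ23* differed from *w1118* by -0.16 to -0.34, without passing the threshold. The higher gene over all arrays was *TpnC4*, a troponin C of flight muscle (2.67, with 1.65 without rescue replicate 1 and 3.31 without rescue replicate 2). *TpnC4* was also above *w1118* in *tbphΔ23* (2.62) and *tbphΔ142* (2.43), and the rescue did not pass the threshold against *tbphΔ23* (0.06, adjusted p = 0.963). Of 11 clock genes 4 were higher (all genes 16.9%), and without rescue replicate 1 the counts were 3 higher and 2 lower. Among the 4 were *cwo* (0.61) and the photoreceptor gene *cry* (0.99). *cry* read 9.17, 9.10 and 9.13 in the rescue and 8.24, 8.09 and 8.10 in *w1118*. *vri* and *per*, which cycle through the day, spread over the rescue arrays (*vri* 9.21, 6.75 and 7.92, against 8.47, 8.24 and 8.44 in *w1118*). Of 19 genes of ciliated sense organs 3 were higher and 3 lower, near the shares over all genes (16.9% and 18.0%), and 1 was higher without *w1118* replicate 2. *Tektin-C*, a microtubule protein of cilia and flagella, read 4.68, 4.04 and 4.11 in the rescue and 8.86, 9.03 and 8.80 in *w1118* (-4.62), with -5.09 in *tbphΔ23*.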

How the data were processed

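Total RNA of whole adult heads (TRIzol) was biotin-labelled in a 3′ IVT reaction and measured on Affymetrix Drosophila Genome 2.0 arrays. The authors made log2 values per probe set by RMA, and these deposited log2 values (2.318 to 14.23) were used as given. RMA equalises the distribution over arrays, so a shift shared by most genes would not be seen. The 13647 probe sets with 1 gene in the platform annotation were collapsed by their median to 11982 genes. The 402 with several genes and the 4903 unlisted were left out, and symbols were updated through RefSeq. One limma 3.58.1 model of 4 group means (R 4.3.3) was fitted, and rescue minus *w1118* was tested two-sided with Benjamini-Hochberg adjustment over all genes at 0.05. The residual spread is pooled over 12 arrays (median standard error 0.0928), and their number limits the precision. Genes with an SD above 1 numbered 186 in the rescue and 11 in *w1118*, so the pooled error can understate that of rescue values.

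Members and gene lists were chosen with earlier results of these data known. Lists are described by counts and medians without a set test. Named genes are TBPH, RpL32, the 12 highest and 12 lowest changed genes with non-overlapping arrays, up to 5 changed members per list, and all cell type markers. Other genes were named after their values were seen. The steps were tested on simulated data. Replicates are called biological in the labels, and the number of heads per array and the RMA version are not given in the sources used here.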

Additional observations from a re-analysis of the deposited data

How the results depend on the processing

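The comparison was repeated under 16 alternatives, of which the fit of the 6 rescue and *w1118* arrays without rescue replicate 1 was chosen after seeing the data. Across 2798 values of the 188 named genes in these alternatives, 2624 kept direction and side of the threshold, 162 were no longer past it, 8 newly passed it and 4 turned round. The 4 were values of the brightest probe set in place of the median, with *futsch* at 0.54, *brp* at -0.09, *rdgC* at -0.19 and *Galphaq* at -0.82. The probe sets of these genes disagreed, and the dimmer ones differed by 1.14 for *rdgC* and by 0.45 and 0.78 for *Galphaq*. Why they disagree was not tested. Of the 164 changed named genes, 31 lost the call in at least 1 alternative, 14 of them without rescue replicate 1. With a minimum of 2-fold, by construction fewer genes counted: 864 changed, 327 higher and 537 lower, with tanning genes lower 5, odorant-binding proteins higher 13, odorant receptors 1, cytochrome P450 16, glutathione S-transferases 3, UDP-glycosyltransferases 3, hemocyte markers 2, cytosolic and mitochondrial ribosomal proteins 0 each, neuropeptides 3, synaptic genes 0, channels 1, transmitter receptors 1, pan-neuronal markers 0 and muscle genes 6. The 6 arrays alone gave 7 higher odorant receptors, 7 lower transmitter receptors and 2 higher pan-neuronal markers, and 7 odorant and 5 transmitter receptors when rescue replicate 1 was left out too. With genes of a mean under 4 left out, 4 odorant receptors were higher, as most are that dim, and with medians centred 6 transmitter receptors were lower. Leaving out each array in turn gave 3646 to 4083 changed genes, 9 to 17 higher odorant receptors, 7 to 12 lower synaptic genes, 7 to 10 lower transmitter receptors and 2 to 4 higher pan-neuronal markers. Same-numbered arrays of different groups had residual correlations of -0.212 to 0.0914 over 18 pairs. With 3 arrays per group these values cannot show whether the numbers pair arrays, and the labels do not say. The fit with the replicate number as a block changed 3997 genes, 1915 higher and 2082 lower. The 3 arrays per group limit the precision, and genes below 4 have little room to fall.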
